A study of Mus musculus with 6 samples.

Results

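Polycomb repressive complex 1 (PRC1) was examined through 9 genes for its subunits, *Ring1*, *Rnf2*, *Bmi1*, *Pcgf6*, *Cbx2*, *Cbx7*, *Cbx8*, *Phc1* and *Phc2*, in total RNA-Seq of mouse colonic crypts. The members were chosen by gene symbol, and all 9 were found among the 18049 genes of the table. Crypts came from 3 control mice given vehicle (20% captisol in PBS) and 3 mice given the EZH2 inhibitor GSK503 at 200 μg/kg by tail vein injection for 9 weeks, with 1 library per mouse. All 6 mice were of C57BL/6J background and of the same Lynch syndrome model, which carries *Villin-Cre*, active in the intestinal epithelium, and a humanized microsatellite knockin in *TgfβRII*, and all were fed a Western-style diet from 8 weeks of age. Age at collection and sex are not given for single mice in the labels.

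PRC1 silences genes by attaching ubiquitin to histone H2A (H2AK119ub), which its RING1A or RING1B ligase does together with a PCGF partner. In canonical PRC1 a CBX subunit reads H3K27me3, the mark written by EZH2 in Polycomb repressive complex 2 (PRC2), and a PHC subunit clusters the complexes through its SAM domain. Variant complexes hold RYBP or YAF2 in place of a CBX subunit and find their targets without H3K27me3. In the intestine, BMI1 is known for its part in self-renewal of crypt cells. The comparison therefore describes whether RNA of these PRC1 subunits differed between mice given the EZH2 inhibitor and control mice. It cannot separate inhibition of EZH2 from sex, as set out below.

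Values are estimated counts scaled to a common library size by the authors with TMM (CPM). Differences were tested by limma on log2(value + 0.1) over the 16670 genes with at least 0.1 in at least 3 mice, which include all 9 members, with Benjamini-Hochberg (BH) adjustment over all of them, and each log2 fold change (log2FC) is the GSK503 minus the control mean on that scale. The libraries held an estimated total of between 108162848 and 135085027 counts, and each member was covered by at least 651 estimated counts in every mouse. Epithelial markers summed to between 9565 and 11670 CPM in every mouse, whereas smooth muscle markers summed to between 98.7 and 179 in controls and to 73.6, 81.2 and 210 in GSK503 mice 1, 2 and 3. All 7 smooth muscle markers had a log2FC below 0, and none was called by limma. *Mylk* alone gave between 69.1 and 96.9 CPM in every mouse, and the other smooth muscle markers differed more between mice. *Myh11*, for example, had 4.91, 20.0 and 15.5 CPM in controls 1, 2 and 3 and 0.50, 0.20 and 23.9 CPM in GSK503 mice 1, 2 and 3. Fibroblast sums were 60.2 to 77.1 CPM in controls and 25.1, 33.8 and 113 CPM in GSK503 mice 1, 2 and 3. B cell sums were 33.4, 75.0 and 22.0 CPM in controls 1, 2 and 3 and 3.66, 1.95 and 61.4 CPM in GSK503 mice 1, 2 and 3. *Jchain* alone gave 57.9 CPM of the B cell sum in GSK503 mouse 3. All 6 B cell markers had a log2FC below 0, and none was called. *Ms4a1* (0.449 to 3.21 CPM in controls, 0.064 to 0.195 CPM with GSK503) and *Cd79b* (0.59 to 5.08 and 0.11 to 0.333 CPM) did not overlap between the groups. Macrophage sums overlapped (77.9 to 100 CPM in controls and 60.3 to 84.8 CPM with GSK503), with a log2FC below 0 for 8 of 8 markers. Goblet cell sums of 10217 to 18398 CPM in controls did not overlap those of 31437 to 49998 CPM with GSK503 (7 of 7 markers with a log2FC above 0, 3 called by limma). Proliferation sums were 1372 to 1542 CPM in controls and 1109 to 1342 CPM with GSK503, although 4 of the 8 markers had a log2FC above 0 and none was called. *Xist* ranged from 0.419 to 0.936 CPM in controls and from 825 to 1236 CPM with GSK503, and the Y-linked *Uty* from 42.5 to 53.7 CPM and from 0.67 to 1.08 CPM. The Y-linked *Eif2s3y* ranged from 51.3 to 59.5 CPM in controls and was 0 in every GSK503 mouse. By these genes all control mice were male and all GSK503 mice female. Sex and treatment therefore cannot be told apart in any comparison below. This holds for the 9 members too, none of which lies on a sex chromosome.

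No member passed an adjusted p of 0.05 or of 0.1 from limma, against 0.642% and 1.97% of all genes tested. At an unadjusted p below 0.05, *Cbx2* alone passed (1 of 9 members, against 13.3% of all genes and 6.27% toward lower values). The tool limma-voom, run on recovered counts, called 0 members at an adjusted p of 0.05 and 0.624% of all genes. The median log2FC was -0.05 over the 9 members and -0.01 over all genes tested, and 6 members had a log2FC below 0, as did 51.1% of all genes. Scaled by library size alone, the 3 others (*Rnf2*, *Bmi1* and *Cbx8*) also had a log2FC below 0, while the median of all genes shifted to -0.12. In bulk crypts, fewer cells that express a gene and less RNA of it per cell cannot be told apart.

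The sequences upstream of these genes are shown for a feature that the choice of members did not use. RefSeq windows of 300 bases around the start site (GRCm38.p6, 250 bases before and 50 after) were at hand for 8 members in 10 windows. No window was at hand for *Cbx2*, so its promoter is not described here. CpG-rich promoters are the usual sites of PRC1 binding, and 9 of the 10 windows held more CpG pairs than the median window (7 CpG over 32851 windows). The 3 windows of *Phc2* held 45, 19 and 2 CpG pairs, the highest and the lowest of the 10 among them, and the windows of the other members between 9 (*Phc1*) and 37 (*Ring1*). The palindrome CACGTG, an E-box recognized by dimers of MAX such as the MGA–MAX dimer of the PCGF6 complex, was found in 3 of the 10 member windows and in 7.15% of all windows. The letters GCGGGAA, searched on both strands (TTCCCGC), were found in none of the 10 and in 4.6% of all windows. A match is only a description of the letters. CACGTG and GCGGGAA each hold a CpG pair, and the shares over all windows were not matched for CpG content. They therefore give no measure of enrichment. Below, 30 bases around each CACGTG are given 5′ to 3′ on the gene's strand with the E-box in capitals, for *Bmi1* at chr2:18676791-18676820 (plus strand, 215 bases before the start site), *Phc2* at chr4:128654633-128654662 (plus strand, 57 bases before a start site) and *Cbx8* at chr11:119040994-119041023 (minus strand, 98 bases before the start site).
Bmi1: gaatgaggggagCACGTGacccggcggggg
Phc2: ggctggagtgggCACGTGacactctccggt
Cbx8: cgtcgttagcaaCACGTGgggcgggaggaa

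*Ring1* and *Rnf2* encode the alternative E3 ligases RING1A and RING1B. *Ring1* (ENSMUSG00000024325, GRCm39 chromosome 17 from 34239766 to 34243654, minus strand) had values of 17.3, 14.7 and 14.5 CPM in control mice 1, 2 and 3 and of 15.0, 14.0 and 15.9 CPM in GSK503 mice 1, 2 and 3. The GSK503 mice lay inside or just below the control range, with a log2FC of -0.05 (95% confidence interval -0.31 to 0.21, limma, BH adjusted p = 0.906). *Rnf2* (ENSMUSG00000026484, chromosome 1 from 151333755 to 151376729, minus strand) had values of 18.5, 19.6 and 18.3 CPM in controls and of 19.4, 17.9 and 22.5 CPM in GSK503 mice. Its highest and lowest values were both in GSK503 mice, and the log2FC was 0.08 (95% confidence interval -0.17 to 0.32, limma, BH adjusted p = 0.814). Without GSK503 mouse 3, the highest for *Rnf2*, the log2FC of *Rnf2* was -0.01. That mouse also had the highest smooth muscle (210 CPM), fibroblast (113 CPM) and endothelial (19.4 CPM) sums of all mice. Its proliferation sum (1109 CPM) was the lowest. The part of these sums in the *Rnf2* and *Phc1* values was not tested. As fold changes, the intervals were 0.808 to 1.16 for *Ring1* and 0.889 to 1.25 for *Rnf2*.

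*Bmi1* and *Pcgf6* encode PCGF partners of the ligase, BMI1 (PCGF4) in canonical PRC1 and PCGF6 in a variant complex with MGA, MAX, E2F6 and L3MBTL2. *Bmi1* (ENSMUSG00000026739, chromosome 2 from 18681292 to 18691441, plus strand) had values of 10.7, 13.5 and 12.6 CPM in controls and of 12.5, 12.99 and 13.8 CPM in GSK503 mice. Control mouse 1 stood lowest and the other 5 mice lay close together, for a log2FC of 0.10 (95% confidence interval -0.19 to 0.38, limma, BH adjusted p = 0.798). Without control mouse 1, the log2FC of *Bmi1* was 0.00. *Pcgf6* (ENSMUSG00000025050, chromosome 19 from 47022052 to 47039418, minus strand) had values of 8.5, 10.4 and 8.62 CPM in controls and of 8.48, 8.53 and 8.33 CPM in GSK503 mice. The GSK503 mice differed little among themselves (8.45 ± 0.105 CPM, SD, n = 3), and control mouse 2 was the single high value. Its log2FC was -0.11 (95% confidence interval -0.42 to 0.19, limma, BH adjusted p = 0.781) and -0.02 without control mouse 2.

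The CBX genes encode the chromodomain subunits that bind H3K27me3. *Cbx2* (ENSMUSG00000025577, chromosome 11 from 118913788 to 118922100, plus strand), whose product also compacts nucleosomes, had values of 7.37, 8.78 and 8.84 CPM in controls and of 5.66, 6.36 and 6.40 CPM in GSK503 mice. The 3 GSK503 values were all under the lowest control value, which held for no other member and for 9.22% of all genes in this direction. The means were 8.33 ± 0.833 and 6.14 ± 0.416 CPM (SD, n = 3), and the log2FC was -0.43 (standard error 0.15, 95% confidence interval -0.76 to -0.10, unadjusted p = 0.0168, adjusted p = 0.25 from limma). This difference of 25.8% did not pass the adjustment over all genes. Over 19 alternatives the log2FC of *Cbx2* stayed between -0.54 and -0.37 and its BH adjusted p from limma between 0.0935 (library size alone) and 0.532 (without GSK503 mouse 2). The goblet cell, proliferation and sex-linked sums also did not overlap between the groups, and neither did the enteroendocrine sums (192 to 239 CPM in controls and 122 to 159 CPM with GSK503, 6 of 7 markers with a log2FC below 0, 3 called by limma) or the low sums of glial and neuronal markers (0.96 to 1.44 CPM in controls and 1.80 to 1.96 CPM with GSK503), and their part in the *Cbx2* values was not tested.

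*Cbx7* (ENSMUSG00000053411, chromosome 15 from 79800001 to 79855320, minus strand), a major CBX subunit of self-renewing cells, had values of 7.98, 8.99 and 9.25 CPM in controls and of 7.48, 6.72 and 8.70 CPM in GSK503 mice. GSK503 mice 1 and 2 lay below all control mice and GSK503 mouse 3 within them, for a log2FC of -0.20 (95% confidence interval -0.53 to 0.14, limma, BH adjusted p = 0.615). Leaving out GSK503 mouse 3 gave *Cbx7* a log2FC of -0.30 (limma, BH adjusted p = 0.40). Among GSK503 mice, the smooth muscle sum was also greatest in mouse 3, as were the fibroblast, endothelial, macrophage, B cell and goblet cell sums. Among controls, the smooth muscle sum was greatest in mouse 2 and *Cbx7* in mouse 3. The part of these sums in the *Cbx7* values was not tested. *Cbx8* (ENSMUSG00000025578, chromosome 11 from 118927131 to 118931795, minus strand) lies 5030 bp from *Cbx2*, with the 3′ ends of both genes facing each other. It had values of 4.96, 6.37 and 5.52 CPM in controls and of 5.99, 6.44 and 5.53 CPM in GSK503 mice. The groups overlapped over most of their range, and the log2FC was 0.10 (95% confidence interval -0.28 to 0.47, limma, BH adjusted p = 0.855).

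*Phc1* and *Phc2* encode the SAM-domain subunits that join PRC1 complexes to each other. *Phc1* (ENSMUSG00000040669, chromosome 6 from 122291091 to 122317558, minus strand) had values of 9.91, 10.4 and 10.7 CPM in controls and of 9.43, 9.65 and 11.5 CPM in GSK503 mice. The GSK503 mice spanned the whole control range, with a log2FC of -0.03 (95% confidence interval -0.32 to 0.27, limma, BH adjusted p = 0.956). They were in the order of their smooth muscle sums. The control mice were not, with the greatest smooth muscle sum in mouse 2 and the highest *Phc1* value in mouse 3. *Phc2* (ENSMUSG00000028796, chromosome 4 from 128548459 to 128648100, plus strand) had values of 60.0, 56.5 and 57.9 CPM in controls and of 58.9, 49.6 and 56.1 CPM in GSK503 mice. GSK503 mouse 2 stood lowest, and the log2FC was -0.08 (95% confidence interval -0.27 to 0.10, limma, BH adjusted p = 0.715). The *Phc1* locus overlaps the oppositely oriented *M6pr* by 3549 bp, and *Rnf2* and *Cbx7* overlap *Trmt1l* and *Apobec3* by 179 and 206 bp. The library kit keeps strand, but the strand setting of the counting is not given in the sources used here.

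**Figure D1:**
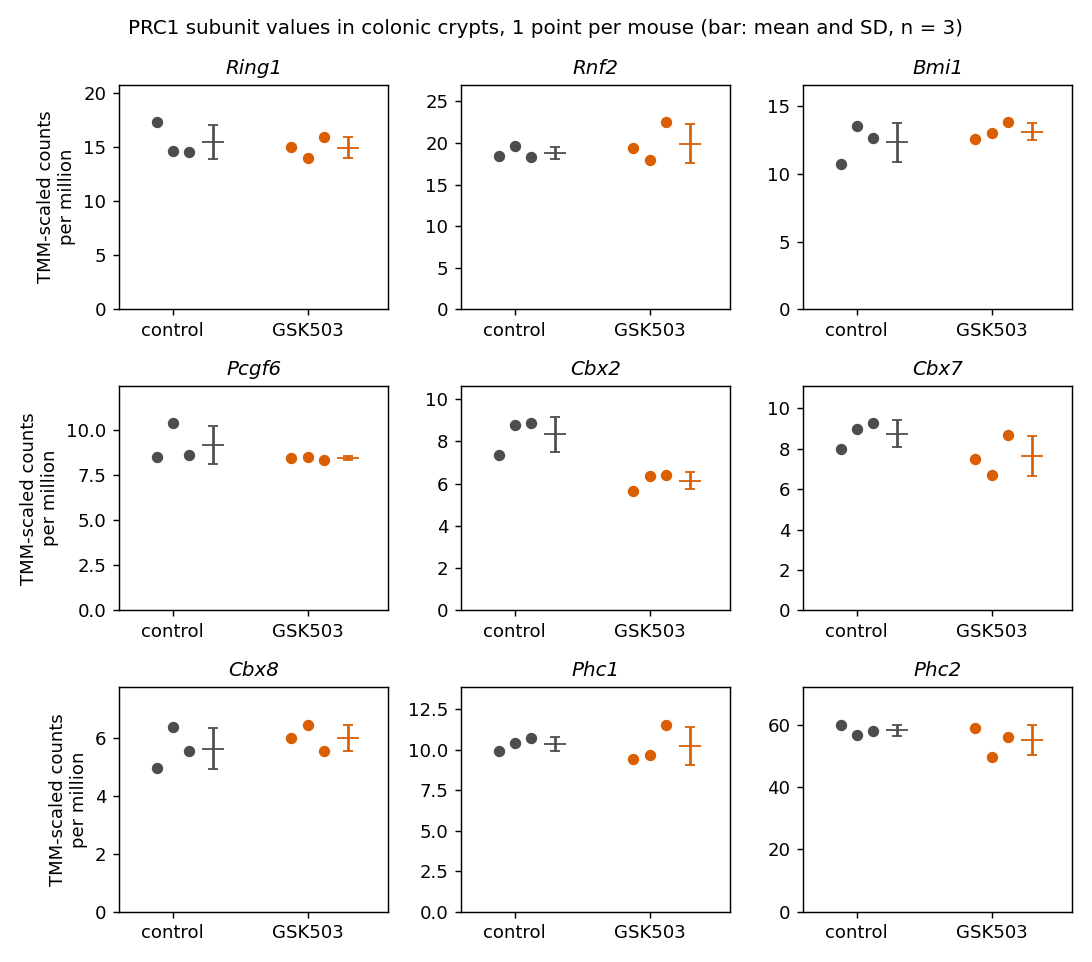
Values of the 9 PRC1 subunit genes in CPM after TMM scaling (vertical axes from 0, scaled per gene), with 1 point per mouse and the mean ± SD of 3 mice beside each group. *Cbx2* is the only panel without overlap, with control mice at 7.37 to 8.84 and GSK503 mice at 5.66 to 6.40 CPM.

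The members varied little between mice of a group. Their residual SD on the log2 scale was between 0.10 and 0.15, with a median of 0.12, against a median of 0.18 over all genes tested. That comparison was not matched for expression level. The medians of the other PRC1, H2AK119ub removal and PRC2 genes were 0.135, 0.149 and 0.129. Apart from *Cbx2*, the 95% confidence intervals of all members included no change, and their bounds lay between a fold change of 0.691 (*Cbx7*) and of 1.38 (*Cbx8*). The narrowest was that of *Phc2*, the most abundant member, from 0.828 to 1.07.

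To compare levels between genes, CPM were divided by the length in kb of each gene's canonical transcript in GENCODE. Among control mice, *Phc2* was highest with 10.9 ± 0.327 CPM per kb (SD, n = 3), followed by *Ring1* (7.63 ± 0.771), *Rnf2* (5.92 ± 0.216), *Pcgf6* (4.09 ± 0.469), *Bmi1* (3.25 ± 0.379), *Cbx7* (2.47 ± 0.191), *Cbx2* (2.19 ± 0.219), *Cbx8* (1.57 ± 0.198) and *Phc1* (1.24 ± 0.0496). Only the neighbours *Cbx7* and *Cbx2* overlapped in this order, although *Cbx7* was higher than *Cbx2* in each of the 3 control mice. *Phc2* stood at percentile 67.9 and *Phc1* at percentile 32.5 of all tested genes with a length. The order depended on the length used. With the union of all annotated exons, *Phc2*, *Ring1* and *Rnf2* kept the first places and *Phc1* the last, whereas *Pcgf6* moved from place 4 to place 6 and *Cbx7* from place 6 to place 8.

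Within each paralogue family, the share of the summed level per kb does not depend on the scaling between libraries. *Ring1* made up 56.2% ± 2.87 of the ligase level in controls and 54.1% ± 1.34 in GSK503 mice (SD, n = 3 mice each), and the groups overlapped. With exon-union lengths its share averaged 53.1% and 51.0%, and in CPM, without division by length, *Rnf2* was the higher of the pair in every mouse. Among the 6 PCGF genes, *Pcgf3*, the partner of a variant complex, held the greatest share (39.0% ± 2.80 and 38.3% ± 2.58), whereas *Bmi1* held 10.2% ± 1.46 and 12.3% ± 1.14. *Pcgf6* held 12.9% ± 2.16 of the PCGF level in controls and 13.4% ± 0.605 in GSK503 mice. The order of these genes depended on the length used. With exon-union lengths *Bmi1* averaged 14.2% in controls and 17.1% with GSK503, above *Pcgf6* at 8.26% and 8.54%. *Pcgf3* was still greatest, at 48.9% and 47.6%.

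*Cbx2* held 32.0%, 32.5% and 32.8% of the summed level of 4 CBX genes (*Cbx2*, *Cbx6*, *Cbx7* and *Cbx8*) in control mice 1, 2 and 3, as against 25.8%, 28.7% and 26.7% in GSK503 mice 1, 2 and 3. Every GSK503 mouse had a smaller *Cbx2* share than every control mouse (exact two-sided permutation test, p = 0.1, the smallest p that 3 mice against 3 allow). The p-values of shares and family sums were not adjusted for their number. For comparison, 19.1% of all genes tested did not overlap between the groups in either direction. With exon-union lengths the *Cbx2* share was 37.3% and 31.0% on average, again without overlap. The other shares overlapped between the groups, with *Cbx8* at 23.3% ± 1.66 and 28.2% ± 3.26, *Cbx7* at 36.8% ± 0.774 and 36.2% ± 3.28 and *Cbx6* at 7.51% ± 0.906 and 8.45% ± 0.935. With exon-union lengths the *Cbx8* share did not overlap either and was 30.5% in controls and 36.7% with GSK503. The *Cbx7* share then averaged 26.6% and 26.1%, below that of *Cbx2* in both groups. In the PHC family, *Phc2* held 58.3% ± 3.97 and 59.2% ± 0.935 and *Phc1* 6.63% ± 0.410 and 7.05% ± 0.896, the remainder being *Phc3*. Summed over a family, the PCGF level was 32.0 ± 2.07 CPM per kb in controls and 28.1 ± 1.38 CPM per kb in GSK503 mice without overlap (exact two-sided permutation test, p = 0.1). The RING1, CBX (4 genes) and PHC sums overlapped.

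**Figure D2:**
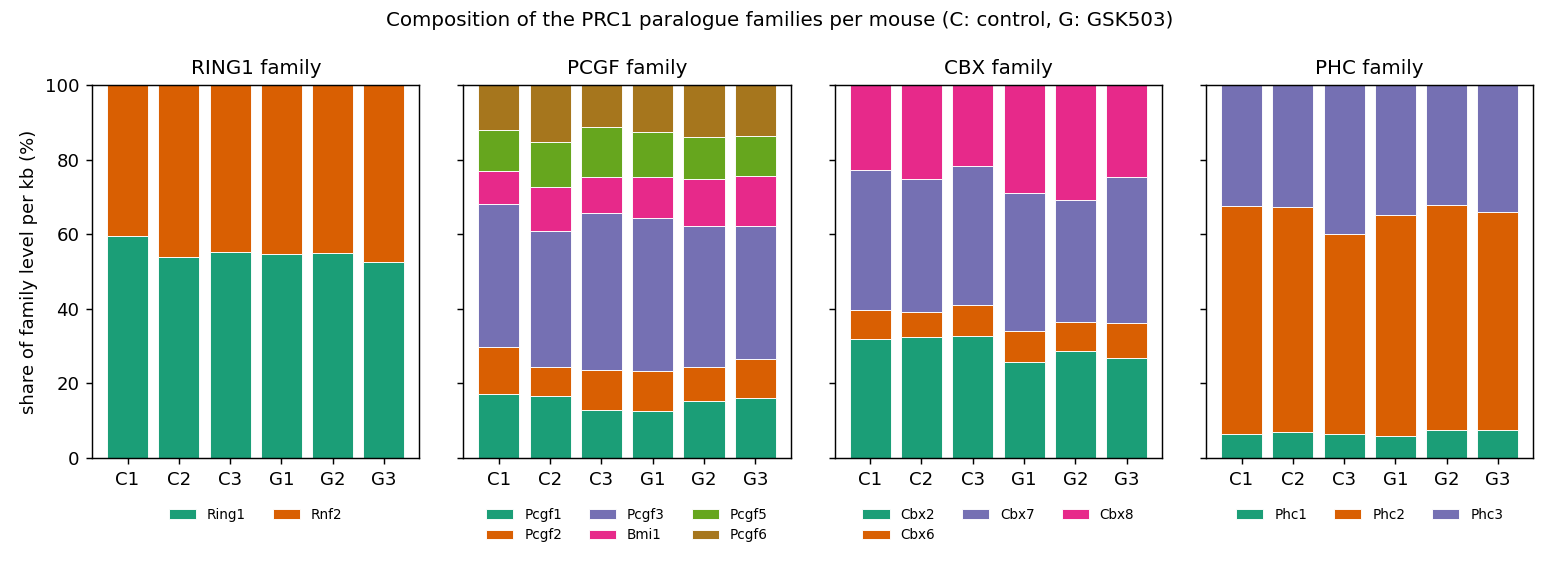
Stacked bars give each gene's share (%) of the CPM per kb summed over the genes shown of its paralogue family, 1 bar per mouse (C, control; G, GSK503). The *Cbx2* segment is 32.0% to 32.8% in controls and 25.8% to 28.7% in GSK503 mice.

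A direct comparison of paralogues used the log2 ratio of their CPM within each mouse, for 6 ratios. The *Cbx8*/*Cbx2* ratio took values of -0.56, -0.46 and -0.67 for control mice 1, 2 and 3 and 0.08, 0.02 and -0.21 in GSK503 mice 1, 2 and 3. It was higher in every GSK503 mouse, with a difference of 0.53 between the means (exact two-sided permutation test, p = 0.1, Benjamini-Hochberg adjusted p = 0.3 over the 6 ratios). On the linear scale, *Cbx8* stood at 0.677 of *Cbx2* in controls and at 0.975 with GSK503. This ratio and the shares of the CBX family hold the same *Cbx2* values as the test of *Cbx2* itself, and are not separate results. The log2FC was -0.43 for *Cbx2* and 0.10 for *Cbx8*. The *Bmi1*/*Pcgf6* ratio also did not overlap, with values of 0.33, 0.38 and 0.55 in controls and of 0.56, 0.60 and 0.72 in GSK503 mice (difference 0.21, exact two-sided permutation test, p = 0.1, adjusted p = 0.3). The nearest mice of the groups, at 0.548 and 0.558, almost met.

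For *Cbx7*/*Cbx2*, the control mice were close together (0.07 ± 0.04, SD, n = 3) and the GSK503 mice were at 0.39, 0.08 and 0.44, so that GSK503 mouse 2 fell inside the control range (exact two-sided permutation test, p = 0.2, adjusted p = 0.3). The *Cbx7*/*Cbx8* ratio differed by -0.29 (exact two-sided permutation test, p = 0.2, adjusted p = 0.3) with overlap. *Ring1*/*Rnf2* differed by -0.12 (exact two-sided permutation test, p = 0.4, adjusted p = 0.48) and *Phc1*/*Phc2* by 0.06 (exact two-sided permutation test, p = 0.6, adjusted p = 0.6), both within the spread between mice. With 3 mice against 3, none of these ratios could pass a p of 0.05. Among single genes, 19.1% of all tested did not overlap between the groups in either direction.

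**Figure D3:**
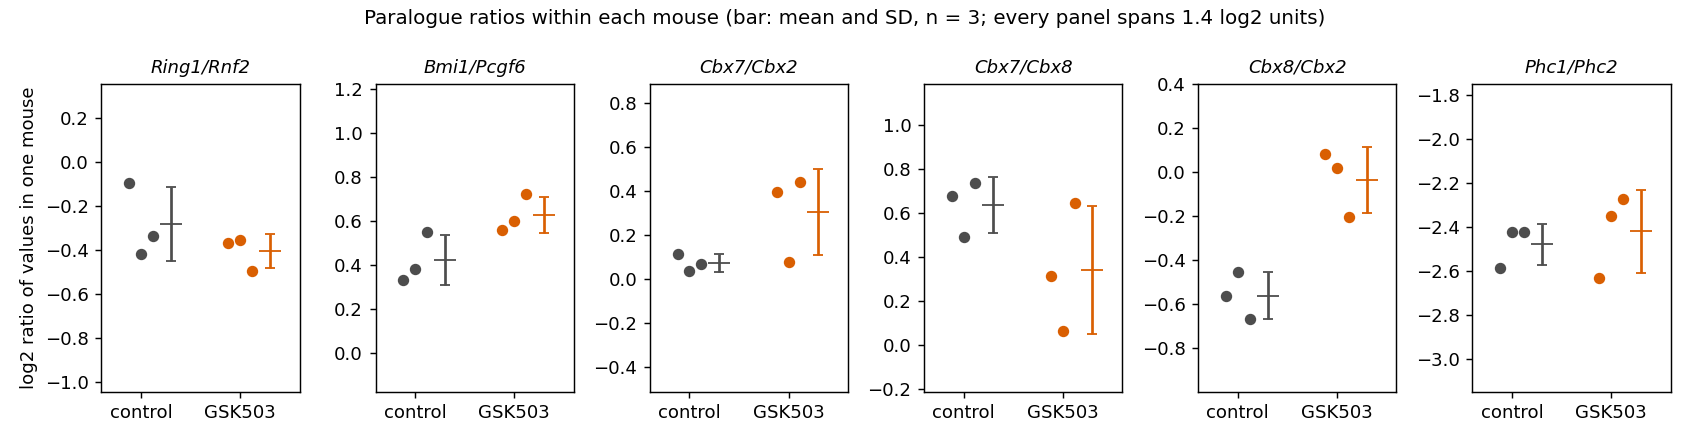
Log2 ratio of the CPM of paralogues within each mouse, with the mean ± SD of 3 mice beside each group and the same span on every vertical axis. The *Cbx8*/*Cbx2* ratio shows the widest separation, from between -0.67 and -0.46 in control mice to between -0.21 and 0.08 in GSK503 mice.

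The other PRC1 genes were taken from a list of 31 that includes further PCGF, CBX and PHC paralogues and the subunits of variant complexes, and all 31 were tested. None passed an adjusted p of 0.05 or 0.1 from limma (0.642% and 1.97% of all genes), 3 had an unadjusted p below 0.05, all toward lower values (13.3% of all genes, and 6.27% toward lower values), and limma-voom on recovered counts called none of them at an adjusted p of 0.05. Of the 31, 24 had a log2FC below 0 (51.1% of all genes did), their median log2FC was -0.06 (-0.01 over all genes), and 7 had all GSK503 values under all control values (9.22% of all genes). All 9 listed partners of the PCGF6 complex had a log2FC below 0, between -0.35 and -0.01, but only 1 of them lay lower without overlap.

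The DNA-binding scaffold of the PCGF6 complex, *Mga*, had values of 105, 126 and 145 CPM in controls and of 97.3, 94.7 and 100 CPM in GSK503 mice. It had the largest absolute log2FC of the 31, -0.35 (95% confidence interval -0.59 to -0.10, unadjusted p = 0.0104, limma, BH adjusted p = 0.204), with no overlap between the groups. *Bcor* and *Bcorl1*, which encode scaffolds of the PCGF1 complex and lie on the X chromosome, had a log2FC of -0.23 and -0.33 (limma, BH adjusted p = 0.262 and 0.275), again without overlap. *Pcgf1* itself, *Usp7*, *Csnk2a2* and *Dcaf7* were the other genes without overlap, with a log2FC between -0.26 and -0.12 and a BH adjusted p from limma between 0.38 and 0.572. *Pcgf5*, a further PCGF partner of variant complexes, had a log2FC of -0.27 (limma, BH adjusted p = 0.41), and its groups overlapped. No gene of the 31 lay higher in each of the 3 GSK503 mice, against 9.84% of all genes.

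**Figure D4:**
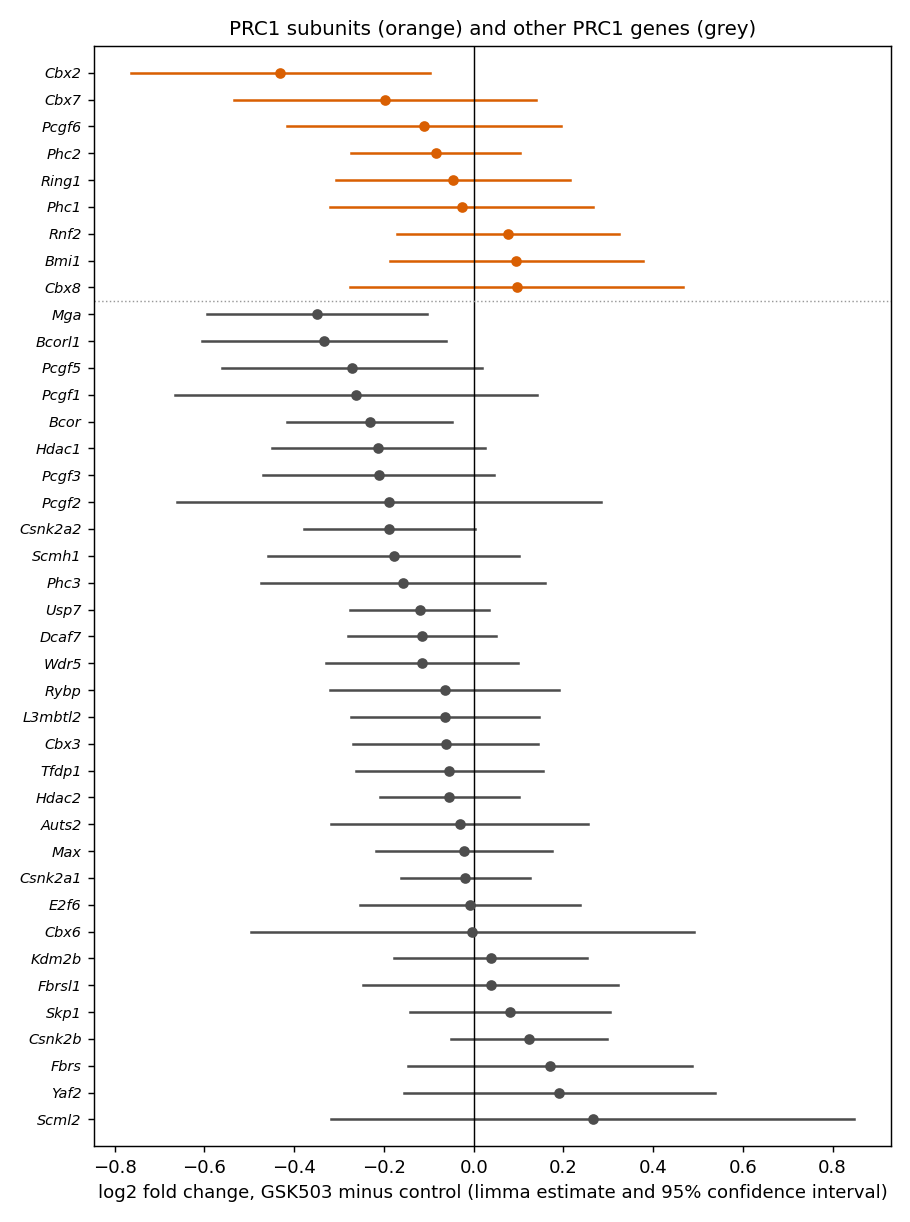
Limma log2FC (point) and 95% confidence interval (line) for the 9 PRC1 subunits (orange) and the 31 other PRC1 genes (grey), each sorted by log2FC. *Cbx2* is the only orange interval that excludes 0 (-0.76 to -0.10), and those of *Mga*, *Bcor* and *Bcorl1* are the grey ones that do, all before adjustment for the 16670 genes tested.

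Removal of H2AK119ub was followed through 14 genes for deubiquitinases and their partners. None passed an adjusted p of 0.05 or 0.1 from limma (0.642% and 1.97% of all genes), and limma-voom called none. At an unadjusted p below 0.05, 4 passed, all toward lower values (6.27% of all genes in this direction), and 10 had a log2FC below 0 (51.1% of all genes), with a median of -0.13 (-0.01 over all genes). The groups did not overlap for 5 genes toward lower values (9.22% of all genes) and for 1 toward higher values (9.84%). *Mysm1*, a histone H2A deubiquitinase, had values of 44.4, 41.5 and 45.3 CPM in controls and of 36.8, 32.7 and 34.8 CPM in GSK503 mice, a log2FC of -0.33 (limma, BH adjusted p = 0.117). *Asxl1*, the cofactor of the BAP1 deubiquitinase, had a log2FC of -0.36 (limma, BH adjusted p = 0.144), and *Bap1* itself had a log2FC of 0.17 (limma, BH adjusted p = 0.438) with every GSK503 mouse above every control mouse. *Asxl3*, *Foxk1* and *Usp3* lay lower in every GSK503 mouse, with a log2FC of -0.46, -0.31 and -0.14 (limma, BH adjusted p = 0.432, 0.28 and 0.453).

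PRC2, whose catalytic subunit is the target of GSK503, was set beside PRC1. None of its 13 listed genes passed an adjusted p of 0.05 or 0.1 from limma, against 0.642% and 1.97% of all genes, and limma-voom called none. At an unadjusted p below 0.05, 4 passed, all toward lower values (6.27% of all genes), 11 had a log2FC below 0 (51.1% of all genes), with a median of -0.08 (-0.01 over all genes), and 5 lay lower without overlap (9.22% of all genes). *Suz12*, *Ezh2* and *Ezh1* had a log2FC of -0.39, -0.27 and -0.24 (limma, BH adjusted p = 0.136, 0.291 and 0.24) without overlap between the groups, whereas *Eed*, whose product binds H3K27me3 within PRC2, had a log2FC of -0.01 with overlap. *Aebp2* and *Lcor* were also lower in every GSK503 mouse (log2FC -0.24 and -0.15, limma, BH adjusted p = 0.279 and 0.496), and *Epop* had a log2FC of 0.52 (limma, BH adjusted p = 0.794) with overlap, its highest value being 3.20 CPM in GSK503 mouse 1 against 0.266 to 0.884 CPM in the other mice. *Cdkn2b*, of the locus classically repressed by PRC1, had a log2FC of -0.04 (limma, BH adjusted p = 0.939), and *Cdkn2a* was not analysed here.

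Among all tested genes, those most like *Cbx2* over the 6 mice were *Pappa2*, *Sort1*, *Sntb2*, 2500002B13Rik and *Tyw3*, with a Pearson's r of log2 values between 0.985 and 0.993. This likeness is a description over 6 mice that include the group difference, and 66 genes had an r above 0.95. For the genes named here, the adjusted p-values from limma lay between 0.167 and 0.513.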

How the data were processed

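Crypt RNA of 3 control mice was compared with that of 3 mice given GSK503, with groups and replicate numbers from the labels. The authors aligned reads to GRCm39 with STAR, quantified genes by RSEM and applied TMM scaling in edgeR, so that the deposited signal is an estimated count scaled to a common library size (CPM). Between 75.2% and 78% of values above 0 were whole multiples of the library's step (tolerance 0.01 count), from which totals were estimated. The column of each library was matched by its description, and no 2 libraries were identical. Whether mice shared a litter or cage is not given. The limma p-values weigh the difference between groups against the spread between mice of a group. They cannot tell treatment from sex, or from a litter or cage shared within a group.

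The members and lists were chosen with earlier results of these data known. limma (version 3.58.1, R 4.3.3) was run with lmFit and eBayes with an intensity trend on log2(value + 0.1), with Benjamini-Hochberg adjustment over 16670 genes. It was tested on simulated data. Genes were matched by symbol to GENCODE M39 (95.4% matched a single gene). Promoter windows came from RefSeq, and promoter positions (GRCm38.p6) and gene positions (GRCm39) are of different builds. Genes named were the 9 members and, from the other lists, those without overlap between groups, those with an adjusted p below 0.1, the 3 of each list with the largest absolute log2FC, and *Ezh2*, *Eed*, *Suz12*, *Ezh1* and *Cdkn2a*, as well as the 5 genes most correlated with the member of smallest p. *Cdkn2b*, the other gene of its list, falls under the same rule. Further paralogues are named for the shares of their families. Some items are not reported here, and lists and family sums were computed without them. Alternatives were other scalings, pseudocounts and filters, no trend, robust eBayes, limma-voom, a replicate block, no X and Y genes, and leaving out each mouse. Python 3.11.15, pandas 2.3.3 and matplotlib 3.10.9 were used.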

Additional observations from a re-analysis of the deposited data

How the results depend on the processing

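Under 19 alternatives no member was called at a limma adjusted p of 0.05, and 163 of 171 member values kept their direction. The direction turned with library size alone for *Rnf2* (log2FC -0.036), *Bmi1* (-0.018) and *Cbx8* (-0.016), a scaling that moved the median log2FC of all genes to -0.12. It also turned with single mice left out, for *Ring1* without GSK503 mouse 2 (0.00058) or control mouse 1 (0.034, range -0.092 to 0.034), for *Rnf2* without GSK503 mouse 3 (-0.013, range -0.013 to 0.15), and for *Phc1* without GSK503 mouse 1 (0.028) or 2 (0.011, range -0.12 to 0.028). The *Phc1*/*Phc2* ratio difference was between -0.015 (without GSK503 mouse 3) and 0.17 (without GSK503 mouse 1) with each mouse left out, and 59 of 60 ratio values kept their direction. With library size alone, 2 H2AK119ub removal genes (*Mysm1* and *Asxl1*, limma adjusted p = 0.0406 and 0.0462) and 1 PRC2 gene (*Suz12*, 0.0482) were called.

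Over all genes, 107 were called. The count was 261 with library size alone, 16 without the intensity trend, 33 with the replicate block, and between 29 (without GSK503 mouse 2) and 216 (without GSK503 mouse 3) with each mouse left out. The block changed no call of a member, and the replicate numbers did not pair the mice (correlation of deviations 0.03, -0.13 and -0.12 for numbers 1, 2 and 3). The causes were not tested. The 3 mice per group limit the precision, which the confidence intervals give.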
